A study of Mus musculus with 6 samples.

Results

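Macrophages are phagocytes that clear microbes and dead cells, and those of the gut wall are largely renewed from blood monocytes that enter the tissue and mature there. They are recognised by a small set of receptors and secreted proteins. These include the receptor for their survival factors (Csf1r), receptors for microbial lipopolysaccharide and for IgG antibody (Cd14, Fcgr1), the chains of complement C1q, and receptors or lysosomal proteins that serve the uptake of debris (Mrc1, Cd163, Cd68). The levels of 10 such genes were followed in mouse colon tumours. They were chosen by symbol (Cd14, Fcgr1, Adgre1, Csf1r, C1qa, C1qb, C1qc, Mrc1, Cd68 and Cd163) from the 53700 gene rows of the count table, and each had 1 row.

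The 6 libraries were made from bulk colon tumours, pinched away from the muscle beneath, in 2 groups of 3. In the APC-KI mice doxycycline represses endogenous Tcf7l2, a transcription factor of the Wnt pathway, in the whole animal; these mice were on the drug for 6 weeks and are labelled as recovered. The APC-WT mice keep their Tcf7l2 expression under doxycycline, had received it for 10 days and are labelled as cachectic, that is, wasting with cancer. Both groups ate food with 100 mg/kg doxycycline. Genotype, time on doxycycline and state of the animal differ together between the groups and cannot be told apart. The sources used here give no age, strain or origin of the tumours. The labels do not say whether the numbered tumours came from separate mice, so p values measure the spread between these samples, which may be technical in part. By the sex-linked counts given below, the APC-WT tumours were not all from 1 mouse, and sex differs in part between the groups.

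The libraries held between 51777342 and 63921108 counts. Tcf7l2, the targeted gene, stood at 4.48, 6.90 and 5.34 CPM in APC-KI replicates 1 to 3, against 44.1, 43.8 and 35.6 CPM in APC-WT replicates 1 to 3; CPM stands for the usual depth-scaled count, here with TMM factors. It was 7.39-fold lower in the group labelled as repressed (edgeR adjusted p = 0.00124). Counts from 4 Y-linked genes were present in APC-WT replicates 1 and 2 (19164 and 16055 counts) and were 0 in all APC-KI libraries and in APC-WT replicate 3. Xist had 22 and 32 counts in APC-WT replicates 1 and 2, against 108997 to 119040 counts in the other 4 libraries. By these counts APC-WT replicates 1 and 2 were male and the other libraries female. Presence of Y-linked counts thus moved with the group, and results are also given for the 4 Y-negative libraries, a fit that holds APC-WT replicate 3 as its only APC-WT library and takes that library's spread to equal that of the APC-KI tumours. All 10 epithelial genes checked for the labelled tissue were present in every library, with a summed level of 10002 to 12323 CPM in APC-KI and 7633 to 8675 CPM in APC-WT tumours.

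Of the 10 genes, Cd14 and Fcgr1 were higher in APC-KI tumours, 8 did not pass the test and 0 were lower. Past the threshold means an adjusted p under 0.05 in edgeR's quasi-likelihood test over the 19127 genes tested. The 2 genes are 20% of the 10, where 12.5% of all genes tested were called higher and 7.63% lower, 20.1% in all. The same shares over all genes stand beside the counts of each gene list below. Higher genes made up 62.1% of these calls, and 41.0% with library totals in place of TMM factors, a setting under which 2 of the 10 genes were again called higher and 0 lower. All 10 passed the filter on low counts and all 10 had a positive fitted change; the median log2 fold change was 0.48, against −0.02 for all genes tested. The groups did not overlap for 4 of the 10, each with APC-KI above APC-WT, as was the case for 23.0% of all genes, a further 21.5% having all APC-KI below all APC-WT libraries. In bulk tissue, fewer cells of a type and less RNA per cell cannot be told apart.

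**Figure D1:**
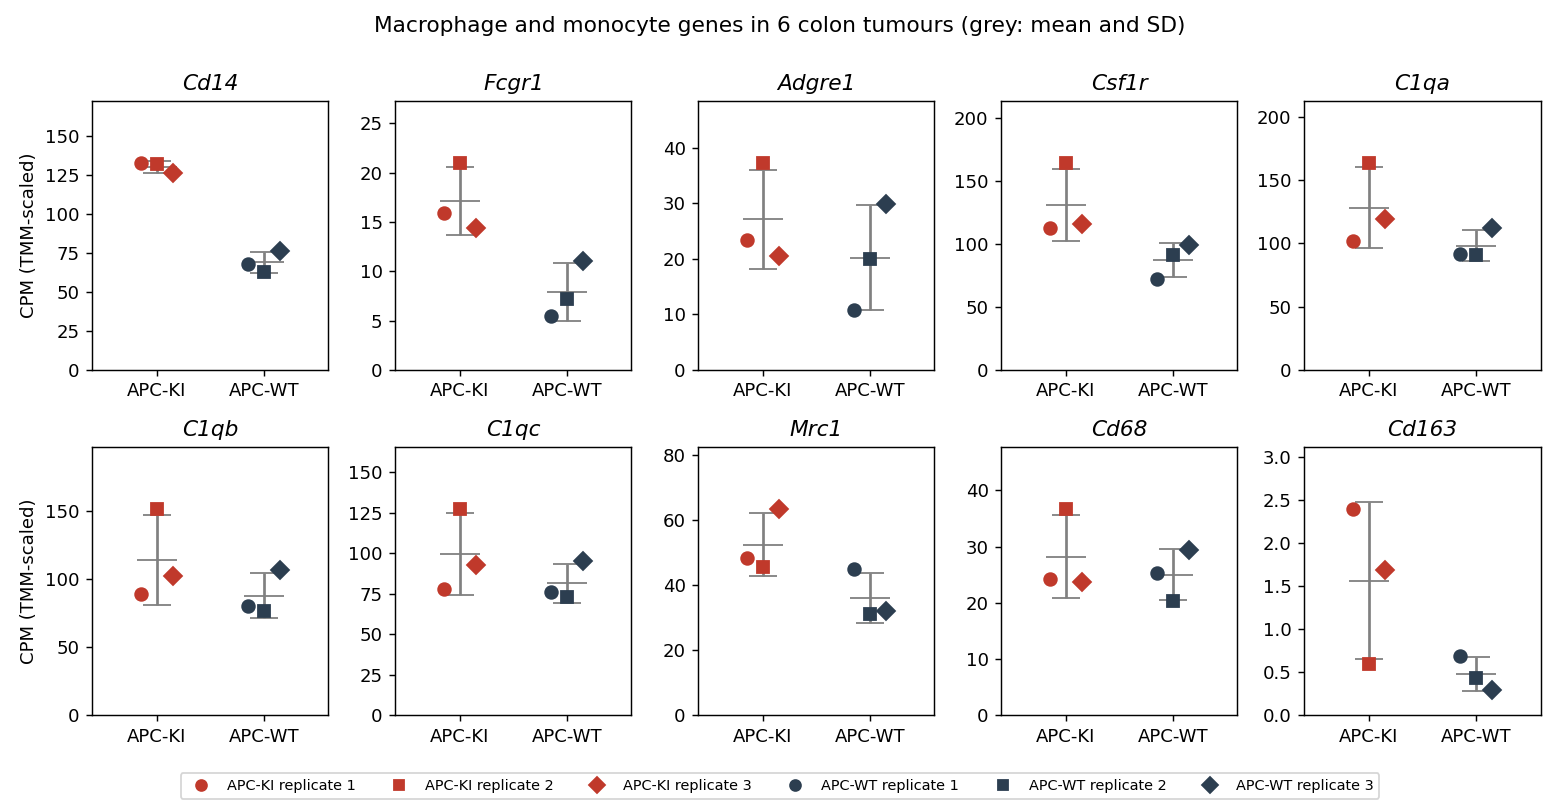
Level of each of the 10 genes in CPM (y axis, from 0, a scale for each gene) in the 3 APC-KI and the 3 APC-WT tumours, with 1 symbol per replicate and the group mean ± SD in grey. The APC-KI and APC-WT values stand apart for Cd14, Fcgr1, Csf1r and Mrc1, and APC-KI replicate 2 is the highest library for 7 of the 10 genes.

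Cd14 (ENSMUSG00000051439, chr18:36725067-36726798 in GRCm38, minus strand) encodes a surface protein that takes up lipopolysaccharide and hands it to the TLR4 receptor complex. It stood at 132, 132 and 126 CPM in APC-KI replicates 1 to 3, against 67.9, 62.9 and 76.2 CPM in APC-WT replicates 1 to 3. The APC-KI libraries lay close together and well above the highest APC-WT library. The gene rose 1.88-fold, with a log2 fold change of 0.91 ± 0.09 (SE, edgeR adjusted p = 0.00388). In the Y-negative libraries the log2 fold change was 0.77 (edgeR adjusted p = 0.0463), and over the 17 alternative settings run it lay between 0.77 and 0.99, past the threshold each time. Without APC-KI replicate 2, the highest library for most of the 10 genes, it was 0.91 (edgeR adjusted p = 0.0186).

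Fcgr1 (ENSMUSG00000015947, chr3:96282909-96293969 in GRCm38, minus strand) encodes the high-affinity receptor for IgG. It stood at 15.9, 20.96 and 14.4 CPM in APC-KI replicates 1 to 3, against 5.41, 7.17 and 11.1 CPM in APC-WT replicates 1 to 3, without overlap. It rose 2.17-fold, with a log2 fold change of 1.12 ± 0.29 (SE, edgeR adjusted p = 0.0383). Leaving out a library could end this call. Fcgr1 did not pass without APC-KI replicate 1 (1.17, edgeR adjusted p = 0.0999), APC-KI replicate 2 (0.95, edgeR adjusted p = 0.123), APC-WT replicate 1 (0.90, edgeR adjusted p = 0.0708) or APC-WT replicate 2 (1.05, edgeR adjusted p = 0.121). In the Y-negative libraries its log2 fold change was 0.62 (edgeR adjusted p = 0.246).

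Neutrophils can carry both Cd14 and Fcgr1, and some markers of that cell type moved in the same direction. Of 12 neutrophil markers 6 were higher, 0 lower and 6 not called, with none at 0 in any library. Mmp9, not called, had a log2 fold change of −0.38. The summed level of the 12 was 1062 to 1472 CPM in APC-KI and 682 to 790 CPM in APC-WT tumours. Much of this sum was Cd177 alone, at 646, 689 and 457 CPM in APC-KI replicates 1 to 3. In APC-WT replicates 1 to 3 Cd177 stood at 230, 195 and 385 CPM, and which cells made it was not tested. Ly6g, a surface protein of mouse neutrophils, was 117 ± 19.6 CPM in APC-KI and 36.7 ± 15.1 CPM in APC-WT tumours (SD, n = 3 each), and Cxcr2, their chemokine receptor, was 20.7 ± 5.33 CPM in APC-KI and 10.3 ± 1.06 CPM in APC-WT tumours (SD, n = 3 each). In the Y-negative libraries the log2 fold changes were 1.95 for Ly6g and 0.92 for Cxcr2. Leaving out 1 library at a time gave 1 to 6 of the 12 higher, the fewest without APC-WT replicate 2 (1), APC-KI replicate 1 (2) and APC-KI replicate 2 (3). The part of these cells in the Cd14 and Fcgr1 results was not tested.

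Csf1r (ENSMUSG00000024621, chr18:61100598-61132149 in GRCm38, plus strand) encodes the receptor kinase for the macrophage growth factors CSF1 and interleukin 34. It stood at 113, 164 and 116 CPM in APC-KI replicates 1 to 3, against 72.2, 90.9 and 99.0 CPM in APC-WT replicates 1 to 3. The groups did not overlap, but the log2 fold change of 0.58 ± 0.18 (SE) did not pass in edgeR (adjusted p = 0.0642); it passed in DESeq2 (adjusted p = 0.0175). The gene shares its locus with Hmgxb3 on the other strand, and since the strand setting of the counting is not given in the sources used here, some of the counts may belong to either gene. Hmgxb3 itself stood at 52.1 ± 3.00 CPM in APC-KI and 57.8 ± 1.58 CPM in APC-WT tumours (SD, n = 3 each).

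Adgre1 (ENSMUSG00000004730, chr17:57358691-57483527 in GRCm38, plus strand) encodes an adhesion receptor long used as the surface marker of mouse macrophages. It stood at 23.5, 37.2 and 20.5 CPM in APC-KI replicates 1 to 3, against 10.9, 19.9 and 29.8 CPM in APC-WT replicates 1 to 3. The highest APC-WT library lay above APC-KI replicates 1 and 3, and the spread within each was wider than the difference between them (log2 fold change 0.42 ± 0.39, SE, edgeR adjusted p = 0.462). In the Y-negative libraries the sign turned, at −0.14 (edgeR adjusted p = 0.844).

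C1qa, C1qb and C1qc encode the chains of C1q, which starts the classical complement pathway when it binds antibody or dying cells, and which macrophages make. The genes lie side by side on chromosome 4 (GRCm38), all on the minus strand, with C1qb at 136880129 to 136886187, C1qc at 136889804 to 136893065 and C1qa at 136895917 to 136898803. C1qa stood at 102, 163 and 119 CPM in APC-KI replicates 1 to 3, against 91.7, 90.5 and 112 CPM in APC-WT replicates 1 to 3. C1qb stood at 89.0, 152 and 102 CPM in APC-KI replicates 1 to 3, against 80.1, 76.8 and 107 CPM in APC-WT replicates 1 to 3. For each chain the APC-KI and APC-WT values overlapped, with APC-KI replicate 2 the highest of the 6 libraries. C1qc was 99.6 ± 25.3 CPM in APC-KI and 81.5 ± 12.01 CPM in APC-WT tumours (SD, n = 3 each). None of the chains passed, with log2 fold changes of 0.39 ± 0.18 for C1qa, 0.38 ± 0.23 for C1qb and 0.29 ± 0.19 for C1qc (SE, edgeR adjusted p = 0.174, 0.263 and 0.314). Without APC-KI replicate 2 the log2 fold changes were 0.18 for C1qa, 0.12 for C1qb and 0.07 for C1qc.

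The chains kept nearly the same proportions in every tumour. The log2 ratio of C1qa to C1qb averaged 0.17 ± 0.06 in APC-KI and 0.17 ± 0.09 in APC-WT libraries, and that of C1qc to C1qb −0.19 ± 0.06 in APC-KI and −0.10 ± 0.06 in APC-WT libraries (SD, n = 3 each). Per kilobase of annotated exon, C1qa and C1qb had the highest mean levels of the 10 genes in both groups, at 123 and 105 CPM per kilobase in APC-KI and 94.3 and 80.9 CPM per kilobase in APC-WT tumours. Cd14 followed in APC-KI tumours at 75.0 CPM per kilobase, ahead of C1qc at 51.6. In APC-WT tumours C1qc and Cd14 lay within the spread of each other, at 42.2 and 39.8 CPM per kilobase. Csf1r and Cd68 came next, at 22.7 and 22.5 CPM per kilobase in APC-KI and 15.1 and 19.9 CPM per kilobase in APC-WT tumours, and Cd163 was the lowest in both groups, at 0.286 in APC-KI and 0.0872 in APC-WT tumours.

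The sequences upstream of 3 genes are shown because these genes differ in outcome (Fcgr1 was called, the C1q genes were not) and yet share a short motif. The RefSeq start-site table for GRCm38.p6 held 6 of the 10 genes. The motif searched was AGGAAGT, read on either strand (ACTTCCT on the other), a core bound by ETS-family factors such as PU.1, the product of Spi1. It was picked after the sequences had been looked at, so its share among these genes cannot be read as enrichment over all windows. It occurred in the 250 bases before the start of 4 of the 6 genes (Fcgr1, C1qb, C1qc and Mrc1, and not Cd68 or Cd163) and in 7.69% of all 32851 such windows. The longer GAGGAAGT, which contains the first motif, occurred in 1 of the 6 genes, C1qc, and in 2.44% of all windows. A match describes letters and is not a measured binding site. Sequences run 5′ to 3′ on the minus strand, each gene's own, with the motif in capitals, and end before the first annotated exon. They cover chr3:96293970-96294219 for Fcgr1, chr4:136886201-136886450 for C1qb and chr4:136893066-136893164 for C1qc.
Fcgr1: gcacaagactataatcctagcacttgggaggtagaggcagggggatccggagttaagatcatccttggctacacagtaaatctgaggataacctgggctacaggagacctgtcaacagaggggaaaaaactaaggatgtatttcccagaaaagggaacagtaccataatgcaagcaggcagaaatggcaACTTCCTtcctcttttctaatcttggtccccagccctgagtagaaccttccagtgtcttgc
C1qb: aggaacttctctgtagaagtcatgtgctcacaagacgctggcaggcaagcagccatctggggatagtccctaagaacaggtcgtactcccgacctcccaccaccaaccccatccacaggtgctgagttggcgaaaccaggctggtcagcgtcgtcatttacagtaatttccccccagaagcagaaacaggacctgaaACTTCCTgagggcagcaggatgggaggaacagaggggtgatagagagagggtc
C1qc: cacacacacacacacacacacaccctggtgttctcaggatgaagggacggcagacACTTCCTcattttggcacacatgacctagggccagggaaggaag

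Spi1 itself was 18.8 ± 4.06 CPM in APC-KI and 12.4 ± 3.05 CPM in APC-WT tumours (SD, n = 3 each) and did not pass (log2 fold change 0.61, edgeR adjusted p = 0.0964).

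Mrc1 (ENSMUSG00000026712, chr2:14229392-14332057 in GRCm38, plus strand) encodes the mannose receptor, an endocytic receptor of tissue macrophages that lymphatic endothelium also carries. It stood at 48.3, 45.6 and 63.6 CPM in APC-KI replicates 1 to 3, against 44.9, 31.2 and 32.2 CPM in APC-WT replicates 1 to 3. The lowest APC-KI library was just above the highest APC-WT library, and the log2 fold change of 0.54 ± 0.19 (SE) did not pass in edgeR (adjusted p = 0.0827), while it passed in DESeq2 (adjusted p = 0.0403) and without APC-WT replicate 1 (0.73, edgeR adjusted p = 0.0413). APC-KI replicate 3 was the highest library for Mrc1, as it was for Lyve1, a hyaluronan receptor of lymphatic vessels and of some macrophages, at 36.3 CPM, against 19.5 and 19.0 CPM in APC-KI replicates 1 and 2. Of 9 endothelial and lymphatic markers 5 were higher and 1 (Prox1, a factor of lymphatic vessels that colon tumour cells can also express) was lower, with none at 0. Their summed level was 517 to 655 CPM in APC-KI and 798 to 872 CPM in APC-WT tumours, but without Prox1, left out after the values were seen, the other 8 summed to 307 to 407 CPM in APC-KI and 200 to 267 CPM in APC-WT tumours. Without APC-KI replicate 2 or APC-WT replicate 2, 0 of the 9 were higher, without APC-WT replicate 1 it was 1, without APC-KI replicate 1 it was 2 and without APC-KI replicate 3 it was 3. In the Y-negative libraries the 5 endothelial genes had log2 fold changes from 0.44 (Tie1) to 1.83 (Ccl21a), and Prox1 −1.28. The part of these cells in the Mrc1 values was not tested.

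Cd163 (ENSMUSG00000008845, chr6:124304656-124330527 in GRCm38, plus strand) encodes the scavenger receptor for haemoglobin bound to haptoglobin. It was rare, with 125, 31 and 95 counts in APC-KI replicates 1 to 3, against 46, 25 and 16 counts in APC-WT replicates 1 to 3. These correspond to 2.40, 0.593 and 1.69 CPM in the APC-KI libraries and 0.690, 0.440 and 0.299 CPM in the APC-WT libraries. APC-KI replicate 2, the highest library for most of the 10 genes, was the lowest of its group here and lay below APC-WT replicate 1. The log2 fold change was 1.70 ± 0.56 (SE), the largest of the 10, and did not pass in edgeR (adjusted p = 0.0738). It passed in DESeq2 (1.70, adjusted p = 0.0230) and without APC-KI replicate 2 (2.09, edgeR adjusted p = 0.0432). Of 5 erythroid genes 2 were lower and 0 higher, with a summed level of 7.88 to 34.7 CPM in APC-KI and 52.7 to 118 CPM in APC-WT tumours and none at 0. Without APC-KI replicate 2, APC-KI replicate 3 or APC-WT replicate 2, 0 were lower, without APC-WT replicate 1 or 3 it was 1, and without APC-KI replicate 1 it was 4. In the Y-negative libraries the 2 lower genes, Hbb-bs and Alas2, had log2 fold changes of −1.93 and −2.19. Whether the levels of the erythroid genes and of Cd163 are linked was not tested.

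Cd68 (ENSMUSG00000018774, chr11:69664213-69666153 in GRCm38, minus strand) encodes a glycoprotein of lysosomes and endosomes. It stood at 24.2, 36.8 and 23.7 CPM in APC-KI replicates 1 to 3, against 25.3, 20.4 and 29.4 CPM in APC-WT replicates 1 to 3. Its log2 fold change of 0.17 ± 0.21 (SE, edgeR adjusted p = 0.581) was the smallest of the 10, within the spread of the replicates, and was −0.06 without APC-KI replicate 2.

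**Figure D2:**
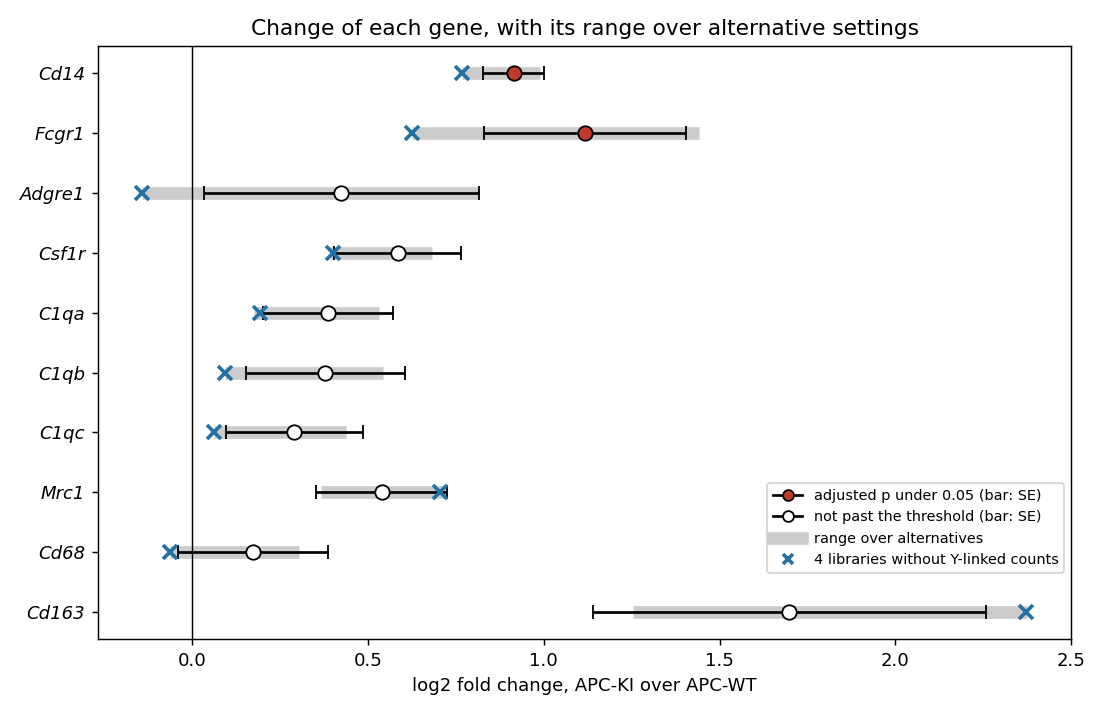
Log2 fold change of each gene, APC-KI over APC-WT (x axis), with its SE as a bar, filled where the adjusted p was under 0.05. Grey bands span the values over the alternative settings and crosses mark the 4 libraries without Y-linked counts; only Adgre1 and Cd68 have bands that reach below 0.

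APC-KI replicate 2 was the highest APC-KI library for 7 of the 10 genes, the exceptions being Cd14, Mrc1 and Cd163. APC-WT replicate 3 was the highest APC-WT library for 8, APC-WT replicate 1 being highest for Mrc1 and Cd163. Summed over the 10 genes, the level was 628, 880 and 680 CPM in APC-KI replicates 1 to 3, against 475, 473 and 592 CPM in APC-WT replicates 1 to 3. Ptprc, the surface phosphatase that all leukocytes carry, was 107 ± 35.3 CPM in APC-KI and 54.0 ± 16.4 CPM in APC-WT tumours (SD, n = 3 each; log2 fold change 0.99, edgeR adjusted p = 0.0656). The log2 ratio of the summed genes to Ptprc averaged 2.80 ± 0.24 in APC-KI and 3.29 ± 0.40 in APC-WT libraries (SD, n = 3 each), a difference of −0.49 with overlapping groups (exact two-sided permutation p = 0.2).

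A ratio taken within a library does not depend on its scaling, so each of the other 7 genes was set against the mean of the C1q chains. An exact two-sided permutation test of 3 against 3 cannot go below p = 0.1, and none of the 8 ratios, the one to Ptprc included, could therefore pass. Cd14 stood at 0.57, −0.16 and 0.27 relative to C1q on the log2 scale in APC-KI replicates 1 to 3, against −0.28, −0.34 and −0.45 in APC-WT replicates 1 to 3. Fcgr1 stood at −2.49, −2.81 and −2.85 in APC-KI replicates 1 to 3, against −3.93, −3.47 and −3.24 in APC-WT replicates 1 to 3. These were the 2 genes whose ratio did not overlap between the groups, with differences of 0.59 for Cd14 and 0.83 for Fcgr1 (exact permutation p = 0.1 each, adjusted p = 0.4 over the 8 ratios). The ratios of Adgre1, Csf1r, Mrc1, Cd68 and Cd163 to C1q overlapped, with differences between −0.17 for Cd68 and 1.25 for Cd163 and exact permutation p values from 0.2 to 0.8. With 1 library left out at a time the difference ran from 0.67 to 2.04 for Cd163, from 0.02 to 0.51 for Mrc1, from 0.16 to 0.35 for Csf1r, from −0.24 to −0.11 for Cd68 and from −0.18 to 0.38 for Adgre1.

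**Figure D3:**
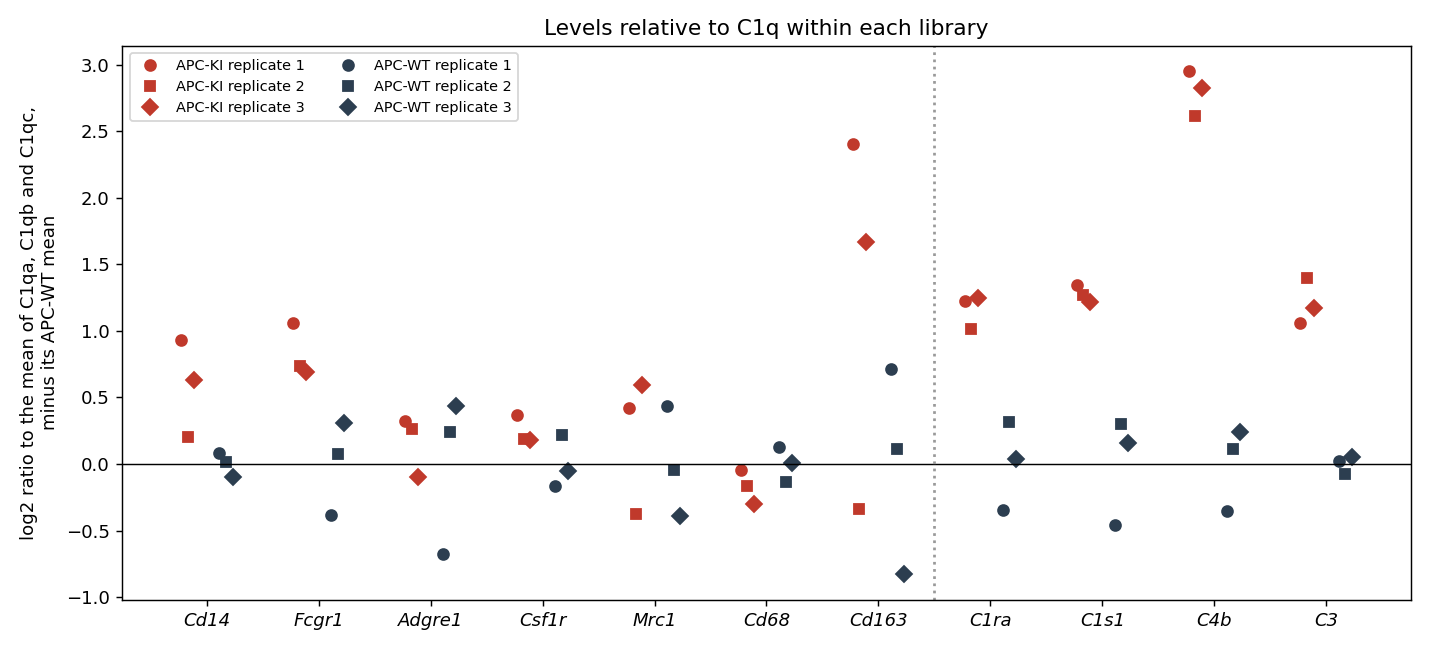
Log2 ratio of each gene to the mean of C1qa, C1qb and C1qc in the same library, minus its APC-WT mean (y axis), for the other 7 genes of the set (left of the dotted line) and for 4 complement genes (right of it). The 3 APC-KI symbols lie above the 3 APC-WT symbols for Cd14, Fcgr1, C1ra, C1s1, C4b and C3.

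Of 10 genes for partners of C1q in the classical complement pathway 5 were higher and 0 lower, with a median log2 fold change of 1.05. C4b, which encodes the component cleaved by the activated C1 complex, was 482 ± 68.5 CPM in APC-KI and 56.8 ± 18.5 CPM in APC-WT tumours (SD, n = 3 each; 8.49-fold, edgeR adjusted p = 0.00340). The C1 proteases C1ra and C1s1, for which near-identical copies exist in the mouse and the split of reads is uncertain, were 2.77-fold and 3.00-fold higher. The central component C3 was 3.01-fold higher and the C1 inhibitor Serping1 2.35-fold higher. Set against C1q within each library, C4b differed by 2.80, C1s1 by 1.28, C3 by 1.21 and C1ra by 1.16 on the log2 scale, without overlap (exact permutation p = 0.1 each, the smallest that 3 against 3 allows; these 4 ratios were chosen after their values were seen). Fibroblasts and epithelium also make these proteins, and of 8 fibroblast markers 4 were higher and 0 lower, with a summed level of 2520 to 3400 CPM in APC-KI and 821 to 2140 CPM in APC-WT tumours and none at 0; their part was not tested. Without APC-WT replicate 2, 0 of these 8 were higher, without APC-KI replicate 2 it was 1, without APC-KI replicate 1, APC-KI replicate 3 or APC-WT replicate 1 it was 2, and without APC-WT replicate 3 it was 6. The 4 higher fibroblast markers had Y-negative log2 fold changes of 0.99 for Dcn, 0.47 for Postn, 0.61 for Thy1 and 0.76 for Mmp2. In the Y-negative libraries C4b passed (log2 fold change 2.65, edgeR adjusted p = 0.0164) and was the 1 gene of the 10 to do so. Without APC-WT replicate 2, 2 of the 10 were higher; leaving out any other single library gave 4 to 6.

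Genes that act with Cd14 in sensing lipopolysaccharide were partly higher. Of 13 genes of this pathway 6 were higher and 1 lower, with a median log2 fold change of 0.41. Lbp, the plasma protein that delivers lipopolysaccharide to CD14, was 61.5 ± 3.43 CPM in APC-KI and 19.6 ± 6.16 CPM in APC-WT tumours (SD, n = 3 each; 3.14-fold, edgeR adjusted p = 0.00686). The receptor Tlr4 was 60.3 ± 12.1 CPM in APC-KI and 27.7 ± 2.44 CPM in APC-WT tumours (SD, n = 3 each; 2.18-fold, edgeR adjusted p = 0.00828). The adaptors Myd88 and Tirap were 1.61-fold and 1.33-fold higher, while Ly96, the small protein that holds lipopolysaccharide on TLR4, did not pass (log2 fold change 0.27, edgeR adjusted p = 0.287). The gene that was lower, named after its value was seen, was the kinase Irak1 (log2 fold change −0.22, edgeR adjusted p = 0.0488). With library totals in place of TMM factors the pathway held 5 higher and 2 lower, and in the Y-negative libraries Lbp alone passed (log2 fold change 1.20, edgeR adjusted p = 0.0273). Without APC-KI replicate 1, APC-KI replicate 2 or APC-WT replicate 2, 3 of the 13 were higher, and the lower call was lost whichever library was left out.

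Of 7 other genes of IgG receptors and their signalling 5 were higher and 0 lower, with a median log2 fold change of 0.78. Fcgr4, an activating receptor of myeloid cells, was 19.0 ± 5.59 CPM in APC-KI and 7.88 ± 1.63 CPM in APC-WT tumours (SD, n = 3 each; 2.41-fold, edgeR adjusted p = 0.0184). The inhibitory Fcgr2b, which B cells also carry, was 1.71-fold and the activating Fcgr3 1.49-fold higher. The kinase Syk, downstream of these receptors, was 1.82-fold higher, as was Fcgrt, which spares IgG from degradation in many cell types (1.82-fold). The receptors are related in sequence, and how reads shared among them were counted is not known. None of the 7 passed in the Y-negative libraries, and 2 were higher without APC-WT replicate 1 or 2 and 3 without APC-KI replicate 1 or 2.

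Of the growth factors and receptors of the colony-stimulating family 1 of 8 was higher and 0 lower, near the 12.5% called higher among all genes tested. The higher one was Il34, a ligand of CSF1R, at 17.1 ± 2.51 CPM in APC-KI and 8.41 ± 1.93 CPM in APC-WT tumours (SD, n = 3 each; 2.04-fold, edgeR adjusted p = 0.0200). Csf1, the other ligand, was 78.0 ± 7.75 CPM in APC-KI and 61.0 ± 23.1 CPM in APC-WT tumours and did not pass (edgeR adjusted p = 0.340). Il34 did not pass in the Y-negative libraries (log2 fold change 0.75, edgeR adjusted p = 0.144), and 0 of the 8 were higher without APC-KI replicate 1, APC-KI replicate 2 or APC-WT replicate 2.

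Other macrophage and monocyte markers gave a similar mixture. Of 16 further macrophage markers 4 were higher and 0 lower, with a median log2 fold change of 0.58. They included the integrins Itgam and Itgax (2.30-fold and 2.12-fold) and the costimulatory receptor Cd86 (2.05-fold). The chemokine receptor Cx3cr1, typical of resident gut macrophages, was 23.2 ± 4.69 CPM in APC-KI and 20.8 ± 8.70 CPM in APC-WT tumours (SD, n = 3 each) and did not pass (edgeR adjusted p = 0.725). Of 10 monocyte markers 3 were higher and 0 lower. Among all genes tested 12.5% were called higher, the share to set beside both lists. Ly6c2, which marks inflammatory monocytes, stood at 10.9, 24.3 and 12.4 CPM in APC-KI replicates 1 to 3, against 0.735, 2.94 and 2.94 CPM in APC-WT replicates 1 to 3 (7.22-fold, edgeR adjusted p = 0.0231), with reads possibly shared with its close copy Ly6c1. Plac8 and Ace were 1.92-fold and 1.97-fold higher. Plac8 stood at 679 ± 165 CPM in APC-KI and 354 ± 59.7 CPM in APC-WT tumours (SD, n = 3 each). These levels lie above those of the leukocyte gene Ptprc, at 107 and 54.0 CPM. Levels of different genes cannot show which cells made them, and the cells that made Plac8 and Ace were not tested. Ccr2, the receptor by which monocytes leave the marrow, was 30.5 ± 12.02 CPM in APC-KI and 12.2 ± 6.39 CPM in APC-WT tumours (SD, n = 3 each) and did not pass (log2 fold change 1.32, edgeR adjusted p = 0.0857). With DESeq2, 10 of the 16 macrophage markers and 5 of the 10 monocyte markers were higher, and in the Y-negative libraries 0 of either list were called in edgeR. The same was true without APC-KI replicate 2 and without APC-WT replicate 2; without APC-KI replicate 1, 0 macrophage markers and 1 monocyte marker were higher, and without APC-WT replicate 3, 7 and 5.

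Among 15 scavenger and endocytic receptors 2 were higher and 2 lower, with a median log2 fold change of 0.27. Over all genes tested 12.5% were called higher and 7.63% lower. Timd4, a phosphatidylserine receptor of long-lived resident macrophages, was 1.97 ± 0.80 CPM in APC-KI and 0.316 ± 0.104 CPM in APC-WT tumours (SD, n = 3 each; 6.16-fold, edgeR adjusted p = 0.0119), and the receptor kinase Axl was 1.61-fold higher. Marco, a scavenger receptor for bacteria, was 1.02 ± 0.54 CPM in APC-KI and 3.89 ± 1.76 CPM in APC-WT tumours (SD, n = 3 each; 3.81-fold lower, edgeR adjusted p = 0.0459). The lysosomal membrane gene Lamp2, active in most cell types, was 1.78-fold lower. Leaving out 1 library at a time gave 0 to 4 of the 15 higher and 0 or 1 lower. None of the 4 passed in the Y-negative libraries, with log2 fold changes of 2.62 for Timd4, 0.40 for Axl, −2.32 for Marco and −0.65 for Lamp2.

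**Figure D4:**
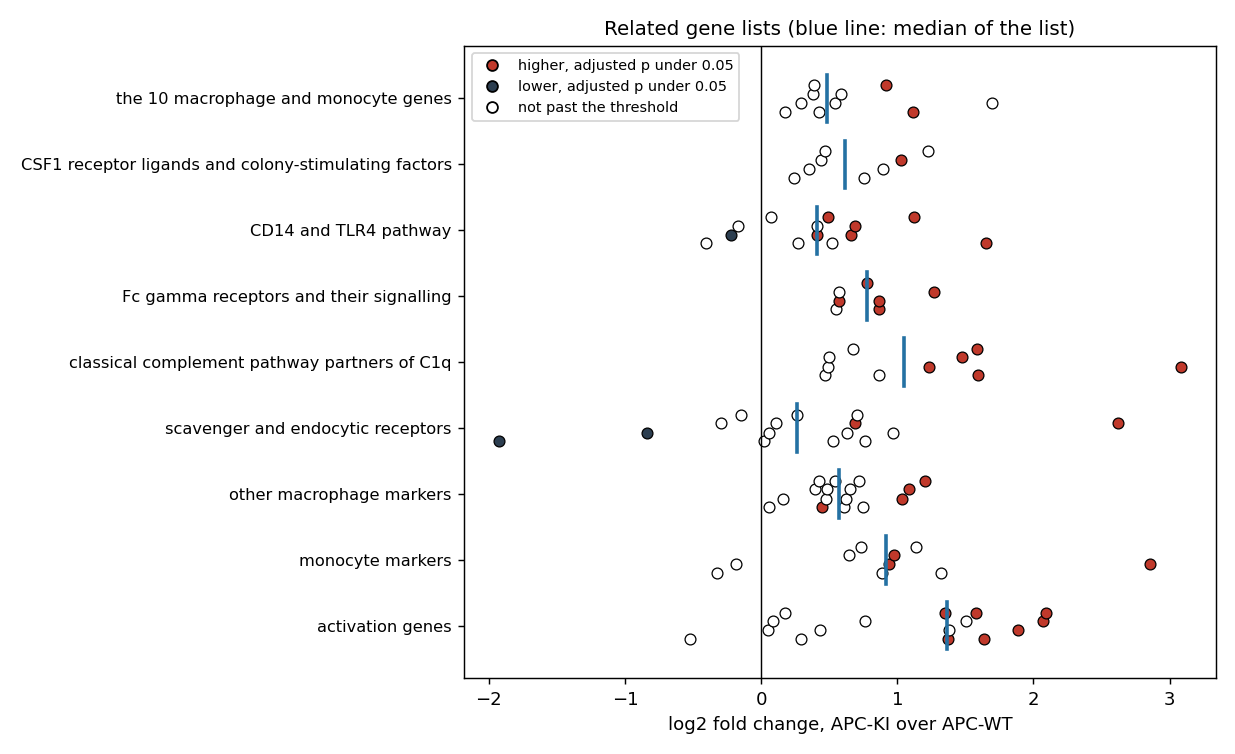
Log2 fold change, APC-KI over APC-WT (x axis), of every tested gene of the 10-gene set and of 8 related lists (rows), with red for higher and dark blue for lower at an adjusted p under 0.05 and a line at each median. The medians run from 0.27 for scavenger receptors to 1.36 for activation genes.

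The genes whose profile over the 6 libraries came closest to that of Cd14 were Grk4, Prdx5, Dusp6, Fcgrt and Cpq, with root mean square differences of 0.04 to 0.08 on the log2 scale after centring. Closest to the mean of the C1q chains were Dennd4b, Bin1, Psrc1, Cd84 and Tnfsf12, with differences of 0.04 to 0.09. The search covered 12781 genes for Cd14 and 12779 for C1q, over 6 libraries. The only gene of the lists above among these 10 was Fcgrt.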

How the data were processed

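RNA from 6 mouse colon tumours (3 per group) was sequenced from stranded mRNA libraries, per the labels' protocols. The authors deposited raw read counts per gene, with no normalization, in 1 table of all libraries. The submitters' processing notes name STAR, DESeq2 1.37.6, cutadapt 2.5 and Trim Galore 0.6.4 with the build GRCm38 (mm10); the counting tool and its strand setting are not given in the sources used here. Gene names and positions came from the GENCODE M21 annotation, which named 52093 of the 53700 genes. Genes were tested with edgeR 4.0.16 (R 4.3.3): filterByExpr, TMM factors, quasi-likelihood test, Benjamini-Hochberg adjustment over 19127 genes, threshold 0.05. CPM per kilobase used the union of annotated exons. The 10 genes and 19 lists were chosen with earlier results of these data known. Named were the 10 genes, from each list up to 4 called genes with the smallest p (all where 5 or fewer were called), 8 regulators (Ptprc, Csf1, Il34, Tlr4, Ly96, Ccr2, Cx3cr1, Spi1), and the 5 closest profiles to Cd14 and to C1q; other names were chosen after their values were seen. Some genes that this rule names are not reported here. Ratios within libraries were compared by exact two-sided permutation. Alternatives were DESeq2 1.42.0, limma-voom (limma 3.58.1), other scalings and filters, removal of mitochondrial and the top 10 genes, a replicate block, leaving out each library, and fits without or adjusted for Y-linked counts. On simulated data with 19127 genes the APC-KI over APC-WT test recovered 47 of 100 genes changed 2-fold and 85 of 100 changed 4-fold, with 12 false calls.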

Additional observations from a re-analysis of the deposited data

How the results depend on the processing

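Of the 10 genes, 2 were called higher; DESeq2 called 5, the fit with a replicate block 1, the 4 libraries without Y-linked counts 1, the fit with Y-linked counts as a covariate 1, and leaving out 1 library at a time 1 to 2. Over all genes, 2388 higher calls became 1195 with the replicate block, 178 without the Y-linked libraries and 220 with the covariate, and 788 to 2542 with a library left out. The 1459 lower calls became 2388 with DESeq2, 2844 with library totals only, 465 with the block, 152 without the Y-linked libraries and 195 with the covariate, and 300 to 1595 with a library left out. Library totals in place of TMM factors shifted the median log2 fold change by −0.12, and higher genes made up 41.0% of calls, against 62.1%. The sign turned for Adgre1 without the Y-linked libraries (−0.14) and with the covariate (−0.14), for Cd68 without the Y-linked libraries (−0.063), with the covariate (−0.060) and without APC-KI replicate 2 (−0.060; −0.060 to 0.304 with a library left out), and for the ratio of Adgre1 to C1q without APC-WT replicate 1 (−0.177 to 0.381 with a library left out); the cause was not tested. Same-numbered tumours did not deviate together (correlations 0.03, −0.07 and −0.18). No pairing by number was seen, but so few libraries per group cannot exclude it. With the block Fcgr1 did not pass (log2 fold change 1.16, edgeR adjusted p = 0.0770). Of 169 fold changes of the 10 genes under alternatives, 152 kept their direction and their side of the threshold. Cd163, at 16 to 125 counts, was too low for the stricter filter, and its counts of 125, 31 and 95 in APC-KI replicates 1 to 3 varied widely.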

Other observations

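Activation genes that macrophages share with other cells were partly higher in APC-KI tumours, with 7 of 16 tested called higher, 0 lower and a median log2 fold change of 1.36; Retnla, at 0 in some libraries, was not tested. Nos2, the inducible nitric oxide synthase, which epithelium also makes, was 392.2 ± 81.6 CPM in APC-KI and 131 ± 48.9 CPM in APC-WT tumours (SD, n = 3 each; 2.98-fold, edgeR adjusted p = 0.0201). The checkpoint ligand Cd274 was 2.55-fold, the monocyte chemokine Ccl7 4.27-fold and the interferon-induced chemokine Cxcl10 3.69-fold higher. Leaving out 1 library at a time gave 0 to 8 higher, with 0 without APC-KI replicate 1, 1 without APC-KI replicate 2 or APC-WT replicate 2, and 2 without APC-WT replicate 1. Nos2 was the 1 gene that passed in the Y-negative libraries.

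Some markers of other cell types differed between the groups as well. Among all genes tested 12.5% were called higher and 7.63% lower. The dendritic cell count, 2 of 11, is near the share called higher. Of 11 dendritic cell markers 2 were higher (the lectin Clec10a and Siglech of plasmacytoid cells), of 10 T and NK cell markers 6, of 8 B and plasma cell markers 5, of 8 pan-leukocyte genes 2 (Lsp1 and Cd52) and of 8 smooth muscle markers all 8, with 0 lower in each of these lists. Jchain, the joining chain of secreted antibody, was 9.87-fold higher and the smooth muscle myosin Myh11 5.73-fold higher. Of 8 mast cell markers 7 were lower and 1 higher: the tryptase Tpsab1 was 0.057 ± 0.034 CPM in APC-KI and 4.80 ± 1.85 CPM in APC-WT tumours (SD, n = 3 each; edgeR adjusted p = 0.00352), and Hdc, the histamine-forming enzyme, was the one higher. Of the epithelial markers 5 of 10 were higher. Several of these counts changed when a library was left out. Leaving out 1 library at a time, T and NK cell markers gave 0 to 6 higher (0 without APC-KI replicate 2, 1 without APC-KI replicate 1 or APC-WT replicate 2, 2 without APC-WT replicate 1), smooth muscle markers 2 to 8 (2 without APC-WT replicate 2, 4 without APC-KI replicate 1 or 2) and epithelial markers 1 to 6 (1 without APC-KI replicate 1, APC-KI replicate 2 or APC-WT replicate 2, 2 without APC-WT replicate 1). Pan-leukocyte genes gave 1 to 4 higher (1 without APC-KI replicate 1 or 2 or APC-WT replicate 1 or 2, 4 without APC-WT replicate 3), dendritic cell markers 1 to 3 (1 without APC-KI replicate 1, APC-KI replicate 2 or APC-WT replicate 2) and B and plasma cell markers 4 to 6. Mast cell markers gave 5 to 7 lower, and no mast cell marker was called higher without APC-KI replicate 1 or without any 1 of the APC-WT replicates. In the Y-negative libraries 3 mast cell markers were lower, and none of the dendritic, T and NK, B and plasma, pan-leukocyte, smooth muscle or epithelial markers passed.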
